A study of Mus musculus with 11 samples.

Results

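The Hox genes are the homeobox genes of 4 chromosomal clusters, HoxA, HoxB, HoxC and HoxD, and each member is named for its cluster and its paralogue group from 1 to 13. The members described here were chosen by name, as every protein-coding gene with a symbol from that series, and antisense and noncoding genes of the clusters were left out. Of 39 such genes, 38 were found among the 37310 gene identifiers of the deposited tables, and Hoxd4 was not analysed here. The libraries were RNA-seq of organoids grown from small intestine crypts of Lgr5-EGFP-IRES-creERT2 mice, a strain in which a GFP and a drug-inducible Cre are expressed from the Lgr5 stem cell locus. Organoids of 2 animals, mouse_283 and mouse_285, were sequenced at early passages (2, 3 and 4 of mouse_283, 2 and 4 of mouse_285, n = 5 libraries) and at late passages (11, 12 and 13 of each animal, n = 6 libraries), all in the same growth medium with a passage every 7 days and with no treatment named in the labels. Mice of 4 and 24 months are named in the protocol, but neither of the 2 animals is given an age, and ages were not compared. The protocol describes crypts of the upper and lower small intestine and of the colon, while the labels give small intestine epithelium for every library. The libraries of a stage came from repeated passages of the same 2 cultures, so p-values measure the spread between these libraries, and stage cannot be told apart from anything else that differed between early and late cultures.

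Hox proteins are DNA-binding transcription factors that give position along the head-to-tail axis of the embryo. Their order on the chromosome follows their order of expression, with low paralogue numbers used further forward and high numbers further back, and along the gut they are used most in the mesenchyme and, in the hindgut, in the endoderm. Hox proteins bind DNA with TALE homeodomain partners of the Pbx, Meis and Pknox families, Cdx proteins are upstream activators of central and posterior Hox genes, and Polycomb complexes hold Hox clusters silent where trithorax proteins keep them open.

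The promoters of 2 members that gave reads in all 11 libraries (Hoxa9 and Hoxa10) and of 2 members that gave none (Hoxa11 and Hoxb8) are shown because the results turn on which members gave any reads, and because Hox promoters are rich in CG dinucleotides, the sites of DNA methylation. Each run holds the 250 bases upstream of the transcription start in the RefSeq table of build GRCm38.p6, 5′ to 3′ on the gene's strand, with CG in capitals.
Hoxa9: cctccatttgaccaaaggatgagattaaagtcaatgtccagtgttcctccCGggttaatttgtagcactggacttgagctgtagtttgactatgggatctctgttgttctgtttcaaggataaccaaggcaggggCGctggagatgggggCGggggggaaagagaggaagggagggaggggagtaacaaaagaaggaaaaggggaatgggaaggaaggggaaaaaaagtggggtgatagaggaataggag
Hoxa10: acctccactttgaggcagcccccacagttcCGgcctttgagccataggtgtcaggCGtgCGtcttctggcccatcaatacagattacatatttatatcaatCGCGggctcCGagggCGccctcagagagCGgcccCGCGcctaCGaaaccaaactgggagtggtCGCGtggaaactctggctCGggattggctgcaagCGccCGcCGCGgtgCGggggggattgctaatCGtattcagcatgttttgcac
Hoxa11: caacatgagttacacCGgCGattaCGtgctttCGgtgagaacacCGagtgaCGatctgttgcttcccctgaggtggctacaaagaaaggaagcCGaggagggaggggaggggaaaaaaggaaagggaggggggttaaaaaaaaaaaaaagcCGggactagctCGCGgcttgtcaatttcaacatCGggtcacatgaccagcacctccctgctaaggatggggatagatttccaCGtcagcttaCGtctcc
Hoxb8: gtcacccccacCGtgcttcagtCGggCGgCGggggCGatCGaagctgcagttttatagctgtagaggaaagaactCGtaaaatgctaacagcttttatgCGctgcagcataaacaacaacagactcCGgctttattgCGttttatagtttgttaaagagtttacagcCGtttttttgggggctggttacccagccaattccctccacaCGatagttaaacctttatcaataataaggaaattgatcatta
The Hoxa9 window lies at chr6:52227371-52227620 on the minus strand and holds 3 CG. The Hoxa10 window lies at chr6:52234940-52235189 on the minus strand and holds 20 CG, and a second listed start of Hoxa10 has a window with 7 CG. The Hoxa11 window lies at chr6:52245811-52246060 on the minus strand and holds 13 CG. The Hoxb8 window lies at chr11:96281655-96281904 on the plus strand and holds 12 CG. The motif CG reads the same on both strands, and as many CG or more stand in 71.0% of all 32851 windows of that length for Hoxa9, in 17.9% for Hoxa10, in 31.5% for Hoxa11 and in 33.5% for Hoxb8. The table matched 21 of the Hox genes with 23 windows, whose median was 13 CG against 6 over all windows. The 12 windows of members with over 3 reads in some library held 3 to 35 CG (median 16), and the 11 windows of members with at most 3 reads in every library held 2 to 24 (median 12), so the ranges overlapped widely. CG counts were compared as a description, and methylation was not measured in these libraries.

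Every Hox gene was silent or nearly so in these organoids. Summed over 11 libraries, the 38 genes took 568 of 228139936 gene reads, which is 0.000249%. As CPM, a gene's reads scaled to 1000000 gene reads of its library, all Hox genes together ranged from 1.14 in passage 12 of mouse_283 to 3.92 in passage 2 of mouse_285. A gene was called silent where no library gave over 3 reads, trace where some library did and the median was under 1 CPM, low from 1 to under 5 CPM, and read from 5 CPM. By that rule 24 of the 38 members (63.2%) were silent, 14 (36.8%) were trace, and none was low or read. Over all 20175 protein-coding genes of the files, 29.1% were silent, 15.2% trace, 7.31% low and 48.4% read. A count of 3 reads came to 0.104 to 0.198 CPM per library, so the class limits the reads seen, and a level above that in a library is not excluded at this depth. The intervals and limits given here cover counting error only, and in a bulk library few cells with a transcript cannot be told apart from little transcript per cell.

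**Figure D1:**
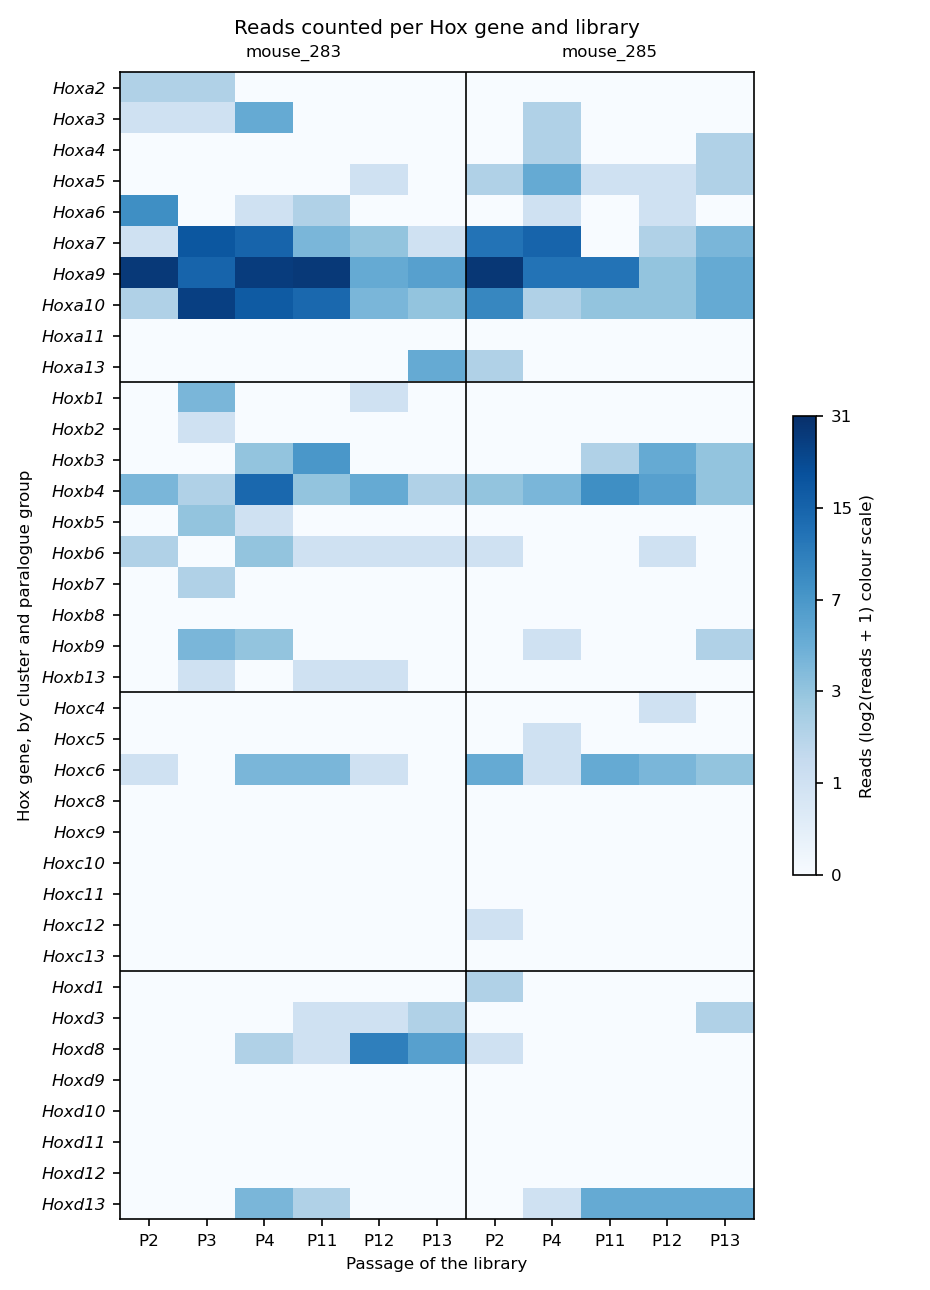
Reads of 37 Hox genes (vertical axis, by cluster and paralogue group) in each library (horizontal axis, by animal and passage), as colour on a log2(reads + 1) scale. Hoxa7, Hoxa9 and Hoxa10 form the darkest band, with up to 28 reads in a library, and 11 genes are blank throughout.

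Of the 24 silent members, 11 gave no read in any library: Hoxa11, Hoxb8, Hoxc8, Hoxc9, Hoxc10, Hoxc11, Hoxc13, Hoxd9, Hoxd10, Hoxd11 and Hoxd12. For each of these, 3 reads over all libraries allow a level of up to 0.0131 CPM. All 11 belong to paralogue groups 8 to 13, the groups used in the trunk, limbs, genital tract and tail end of the embryo. Those groups hold 19 of the 38 members and took 316 of the Hox reads (55.6%), with Hoxa9 and Hoxa10 among them. With no read in any library stood 28.9% of the Hox genes and 17.3% of the protein-coding genes. The other 13 silent members gave 1 to 10 reads in all and never over 3 in a library. Among them were Hoxa2, Hoxa4, Hoxb2, Hoxb5, Hoxb6, Hoxb7, Hoxb13, Hoxc4, Hoxc5, Hoxc12, Hoxd1 and Hoxd3. Hoxb13 and Hoxc12, which pattern the tail end, gave 3 reads and 1 read.

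The 14 trace members were spread unevenly over the clusters. HoxA held 7 of them among its 11 members, HoxB 4 of 10, HoxC 1 of 9 and HoxD 2 of 8. HoxA took 378 of the 568 Hox reads (66.5%), HoxB 109 (19.2%), HoxD 50 (8.80%) and HoxC 31 (5.46%). For 6 of the 14 members the limit of 3 reads was passed in a single library. These were Hoxa3 (5 reads in passage 4 of mouse_283), Hoxa5 (5 in passage 4 of mouse_285), Hoxa6 (8 in passage 2 of mouse_283), Hoxa13 (5 in passage 13 of mouse_283) and Hoxb1 and Hoxb9 (4 each in passage 3 of mouse_283). In 3 members 2 to 4 libraries passed it. These were Hoxd13 (4 libraries), Hoxd8 (2) and Hoxb3 (2), an anterior gene with 20 reads in 5 libraries, of which 7 were in passage 11 of mouse_283 and 5 in passage 12 of mouse_285. In 5 members, Hoxa7, Hoxa9, Hoxa10, Hoxb4 and Hoxc6, it was passed in 5 or more.

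Base composition set 2 libraries aside, passages 3 and 4 of mouse_283. Their reads rose with gene GC content by 0.97 and 0.78 on the log2 scale per 10 percentage points of GC, against -0.41 to 0.20 in the rest. The 38 Hox genes, most of them silent, had a median exon GC of 53.6% against 50.1% over the genes tested. Of the 3 tested members, Hoxa7 and Hoxa10 had 52.6% and 53.1%, and Hoxa9, the most counted, had 49.5%. Without those 2 libraries 27 members were silent and 11 trace. By the rule for silence, leaving out any library can only keep or raise the number silent, so that direction was fixed in advance. The 2 libraries were also deep, with 25604178 and 28555587 gene reads. Gene reads per library ranged from 15114132 to 28949911.

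Compared per length, the 8 members with the highest median CPM lay in a narrow band far below 1 CPM per kilobase of exon. Their medians over libraries were 0.105 CPM per kb for Hoxa9, 0.0774 for Hoxb4, 0.0657 for Hoxa7, 0.0591 for Hoxa10, 0.0582 for Hoxc6, 0.0241 for Hoxb6, 0.0201 for Hoxd13 and 0.0184 for Hoxa5. The ranges over libraries of neighbours in that order overlapped, so the order rests on medians alone.

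Hoxa9, a central-to-posterior gene known for its part in blood progenitors and leukaemia, was the most counted member. In mouse_283 it gave 27, 15 and 26 reads at passages 2, 3 and 4 and 27, 5 and 6 at passages 11, 12 and 13. In mouse_285 it gave 28 and 12 reads at passages 2 and 4 and 12, 3 and 5 at passages 11 to 13. In CPM the early libraries ran from 0.586 to 1.74 and the late ones from 0.173 to 1.28, and the groups overlapped through passage 11 of mouse_283 alone.

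Hoxa10, which patterns the uterus and the lumbar skeleton, gave 2, 25 and 17 reads at the early passages of mouse_283 and 14, 4 and 3 at the late ones. In mouse_285 it gave 9 and 2 reads early and 3, 3 and 5 late. Its early range, 0.0998 to 0.976 CPM, held the whole late range of 0.137 to 0.662 CPM. Passages 3 and 4 of mouse_283, the libraries with the steep GC slope, were among its highest.

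Hoxa7, a trunk gene next to Hoxa9 on the chromosome, gave 1, 18 and 15 reads early and 4, 3 and 1 late in mouse_283. In mouse_285 it gave 12 and 15 reads early and 0, 2 and 4 late. Apart from passage 2 of mouse_283 at 0.0644 CPM, the early libraries lay at 0.525 CPM or more and the late ones at 0.265 CPM or less. Its antisense neighbour Hoxaas3 overlaps 20.4% of its exon bases in the GENCODE annotation, and reads on that overlap are ambiguous without strand.

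**Figure D2:**
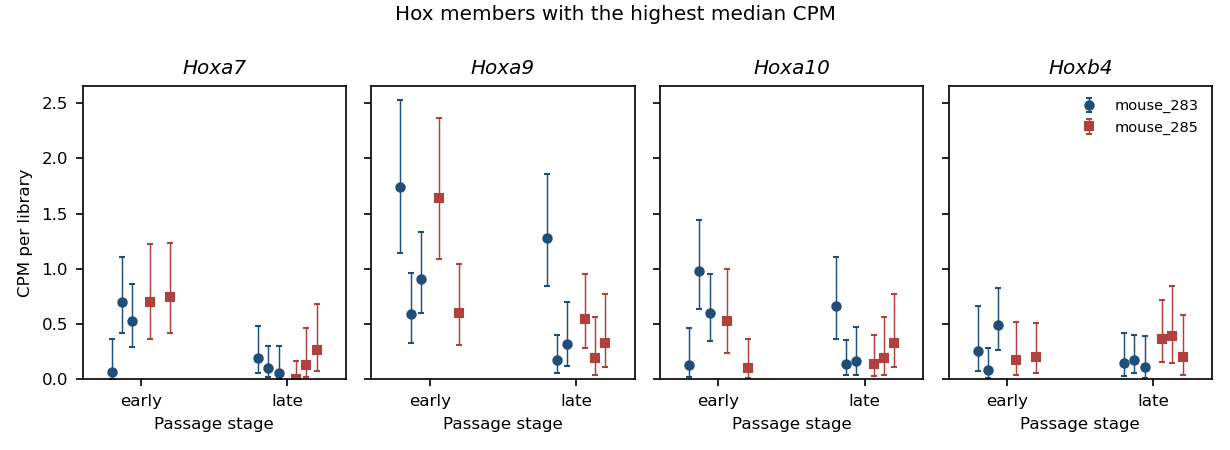
CPM of Hoxa7, Hoxa9, Hoxa10 and Hoxb4 (vertical axis) in each early and late library (horizontal axis), circles for mouse_283 and squares for mouse_285, each group in passage order from left to right, with 95% exact Poisson intervals of the counts as bars. Hoxa9 reaches 1.74 CPM, the late libraries of Hoxa7 all stay at 0.265 CPM or less.

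Hoxb4, a gene of the neck and upper trunk known from blood stem cells, gave reads in all 11 libraries without following stage. Its counts were 4, 2 and 14 early and 3, 5 and 2 late in mouse_283, and 3 and 4 early and 8, 6 and 3 late in mouse_285. The early range was 0.0781 to 0.490 CPM and the late range 0.107 to 0.387 CPM, inside the early one. Hoxc6, a thoracic gene and the only HoxC member above the silent class, gave 1, 0 and 4 reads early and 4, 1 and 0 late in mouse_283. In mouse_285 it gave 5 and 1 early and 5, 4 and 3 late, and the groups overlapped over their whole range.

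Hoxb6, a trunk gene, gave 2, 0 and 3 reads early and 1, 1 and 1 late in mouse_283, with 1 and 0 early and 0, 1 and 0 late in mouse_285. Hoxa5, which takes part in lung and gut mesenchyme development, gave 1 read in mouse_283, at passage 12. In mouse_285 it gave 2 and 5 reads early and 1, 1 and 2 late, so 11 of its 12 reads came from mouse_285.

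Hoxd13, the terminal HoxD gene that patterns digits and the anal end of the gut, gave 0, 0 and 4 reads early and 2, 0 and 0 late in mouse_283. In mouse_285 it gave 0 and 1 early and 5, 5 and 5 late, or 0.228 to 0.331 CPM in the late libraries. Hoxd8, a trunk gene named here after its values were seen, gave 16 of its 20 reads in passages 12 and 13 of mouse_283 (10 and 6 reads), and in mouse_285 it gave 1 read, at passage 2. The late reads of HoxD thus came mostly from Hoxd8 in mouse_283 and from Hoxd13 in mouse_285, at counts too low to enter the test.

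**Figure D3:**
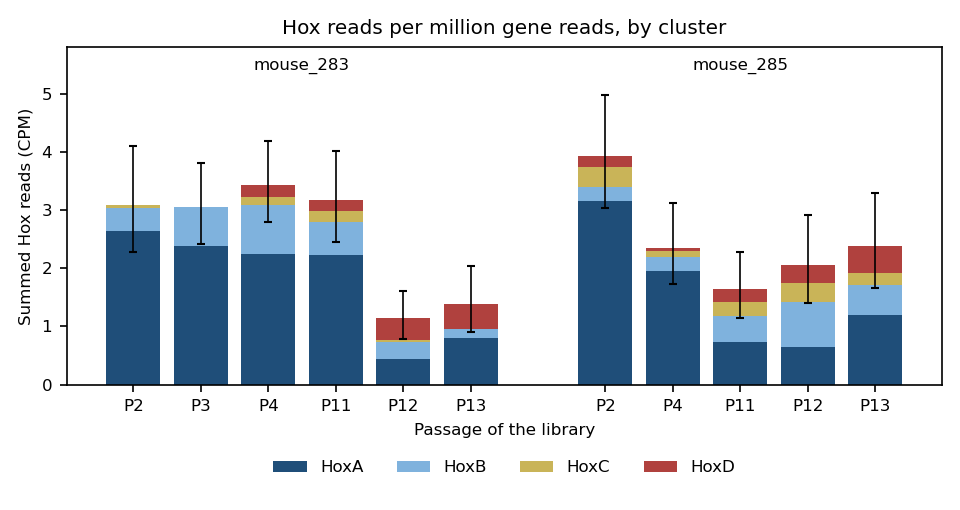
Summed CPM of the 4 Hox clusters (vertical axis, stacked bars from 0) in each library (horizontal axis, by animal and passage), with 95% exact binomial (Clopper-Pearson) intervals of the total share. HoxA makes up most of each early bar, and the totals at passages 12 and 13 of mouse_283 are the lowest, at 1.14 and 1.39 CPM.

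The HoxA sum had the higher mean early and the HoxD sum the higher mean late. HoxA summed to 2.47 ± 0.459 CPM early (SD, n = 5) and to 1.01 ± 0.643 CPM late (SD, n = 6). Early HoxA sums ran from 1.95 to 3.16 CPM and late ones from 0.449 to 2.22 CPM, with passage 11 of mouse_283 the only late library inside the early range. HoxD summed to 0.0871 ± 0.0994 CPM early and 0.335 ± 0.110 CPM late, from 10 and 40 reads, and the ranges met at passage 4 (0.210 CPM) and passage 11 (0.189 CPM) of mouse_283. HoxB stood at 0.475 ± 0.267 CPM early and 0.461 ± 0.218 CPM late, and HoxC at 0.131 ± 0.133 and 0.162 ± 0.122 CPM. HoxA thus made up 76.6% of early and 51.7% of late Hox reads. These sums are a description, with no test, since the members were chosen with earlier results of these data known.

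No Hox gene passed the test between late and early passages. In edgeR's quasi-likelihood test with a term for the animal, 432 of 14172 genes tested (3.05%) passed an adjusted p of 0.05, 100 higher (0.706%) and 332 lower (2.34%) in late libraries. Only Hoxa7, Hoxa9 and Hoxa10 had enough counts to be tested, with 328 of the 568 Hox reads, and 0 of those 3 passed. The other 35 members were not tested. Against a share of 3.05% over all genes, a count of 0 among 3 does not set the Hox genes apart from the rest.

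Hoxa7 had a log2 fold change, late over early, of -2.37 (SE 0.68) and an adjusted p of 0.0828 in edgeR. Hoxa9 had -1.27 (SE 0.53, adjusted p = 0.181) and Hoxa10 -0.94 (SE 0.66, adjusted p = 0.366), beside a median of -0.02 over all genes tested. At an unadjusted p under 0.05 stood 2 of the 3 (Hoxa7 and Hoxa9) and 3346 of all genes. DESeq2 placed Hoxa7 past the threshold (-2.42, adjusted p = 0.0247), as did edgeR without the low-count filter (-2.34, adjusted p = 0.00983) and edgeR without passage 2 of mouse_283 (-2.65, adjusted p = 0.0136). In those settings 1343 of 14172, 1819 of 23493 and 4872 of 14052 genes passed, in that order. The library left out in the last, passage 2 of mouse_283, was the lowest early library of Hoxa7, with 1 read. Over 19 alternative settings Hoxa7 stayed between -2.66 and -1.73, with adjusted p from 0.00983 to 0.259. Without passages 3 and 4 of mouse_283, Hoxa7 stood at -1.73, Hoxa9 at -1.59 and Hoxa10 at 0.04.

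Within each animal Hoxa7 stood at -2.18 (SE 0.95, adjusted p = 0.258) in mouse_283 and -2.61 (SE 1.05, adjusted p = 0.801) in mouse_285 in edgeR. Hoxa9 stood at -0.97 (SE 0.72) and -1.66 (SE 0.82), and Hoxa10 at -1.17 (SE 0.87) and -0.56 (SE 1.10), neither past the threshold. Without passages 3 and 4, which leaves 1 early library in mouse_283, whose spread is taken from the other groups, Hoxa7 stood there at 0.83 (SE 1.69), Hoxa9 at -1.52 (SE 0.89) and Hoxa10 at 1.29 (SE 1.42), so the sign in that animal turned for Hoxa7 and Hoxa10. The test of the difference between the animals' changes passed for 0 of 14172 genes in edgeR, with 302 genes and no Hox gene at an unadjusted p under 0.05, and DESeq2 gave 16 genes and 0 Hox genes.

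Between the animals, 11 of 14172 genes (0.0776%) passed in edgeR, all of them lower in mouse_285, and 0 of the 3 tested Hox genes did. None of the 3 was at an unadjusted p under 0.05, against 730 of all genes, and DESeq2 gave 126 genes and 0 Hox genes. Mouse_285 against mouse_283 had log2 fold changes of 0.28 (SE 0.69) for Hoxa7, -0.38 (SE 0.53) for Hoxa9 and -0.89 (SE 0.68) for Hoxa10, with adjusted p from 0.891 to 0.916 in edgeR.

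Counting over both strands at once limits what can be said of overlapping members. A read on overlapping genes of opposite strands is ambiguous without strand and can be counted in a strand column, and summing the strand columns raised the Hox total from 568 to 691 reads. The sum was higher for 8 members. Hoxb2 went from 1 to 35 reads and Hoxb3 from 20 to 67, both genes whose exons overlap Hoxb3os (27.3% and 52.9% of their exon bases). Hoxa7 went from 75 to 108 reads. With those sums 23 members were silent and 15 trace, Hoxb2 being the one that moved, and still none was low or read. The first strand column held 49.99% to 50.16% of the reads, so it does not tell which of the overlapping genes a read came from. The added reads of Hoxb2, Hoxb3 and Hoxa7 may thus belong to the antisense genes. Overlap on the same strand cannot be resolved by the strand columns either. In GENCODE such same-strand overlap covers 62.4% of the exon bases of Hoxd3, where Hoxd4, not analysed here, is among the overlapping genes. Its effect on the silent class of Hoxd3 was not tested. The antisense and noncoding genes of the clusters were as quiet, with 9 of 11 silent and 2 trace, and Hotair and Haglr gave no read.

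Most genes beside the clusters were read. Of 27 flanking genes in the files, 19 were read, 1 low, 3 trace and 4 silent. Evx2, the homeobox gene at the end of HoxD, gave no read, and Evx1, at the end of HoxA, was trace with 12 reads. By median CPM per kb of exon, Skap2, a gene beside HoxA, stood at 2.83, Hibadh, beyond Evx1, at 7.51, and Mtx2, beyond Hoxd1, at 21.7. On the flanks of HoxB, Skap1 (2 reads), Ttll6 (6 reads) and Calcoco2 (0 reads) were silent and Copz2 (125 reads) was trace. Nfe2l1, Cbx1 and Snx11, on the same flanks, were read, at 35.7, 17.3 and 2.32 CPM per kb. These flanking examples were named after their values were seen. Of 22 tested, 0 were higher and 1, Nfe2, a blood transcription factor gene near HoxC, was lower in late libraries, beside 0.706% higher and 2.34% lower over all genes. At an unadjusted p under 0.05 stood 10 of the 22, and DESeq2 placed 4 past the threshold. Among all 14172 genes tested, 3346 stood at that unadjusted p and 1343 passed in DESeq2. Nfe2 ran from 1.93 to 3.44 CPM early and from 0.662 to 1.32 CPM late, with no overlap, at -1.50 (SE 0.32, adjusted p = 0.0280 in edgeR). That call was lost without passages 3 and 4 of mouse_283 (adjusted p = 0.0585) and in 7 of the settings that left out 1 library.

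**Figure D4:**
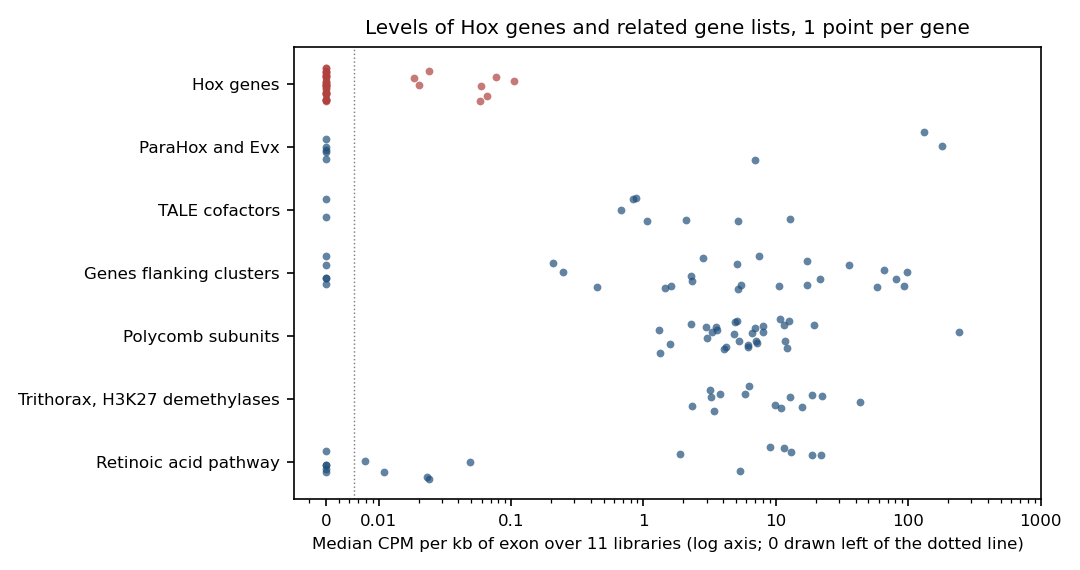
Median CPM per kb of exon over 11 libraries (horizontal log axis, with 0 drawn left of the dotted line), 1 point per gene, for the Hox genes and 6 related lists (vertical axis). All Hox points lie at 0 or up to 0.105 CPM per kb, while Cdx1 and Cdx2 reach 180 and 131.

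Among the homeobox genes upstream of Hox and the partners of Hox proteins, some were read and others silent. Cdx1 and Cdx2, which set intestinal identity, had median levels of 315 and 297 CPM. Cdx2 ran from 188 to 404 CPM early and from 241 to 309 CPM late, at -0.10 (SE 0.20, adjusted p = 0.762), and Cdx1 from 190 to 506 CPM early and from 248 to 328 CPM late, at -0.54 (SE 0.28, adjusted p = 0.241 in edgeR). Cdx1 passed the threshold without passage 2 of mouse_283 (-0.71, adjusted p = 0.0254), while it stood at -0.035 (adjusted p = 0.937) without passages 3 and 4 and at -0.0062 (adjusted p = 0.981) with the GC and length correction. Of the 8 ParaHox and Evx genes, 3 were read, 1 was trace and 4 were silent, with Cdx4, Gsx1, Gsx2 and Evx2 at 0. The third read gene was Pdx1, the gene of duodenum and pancreas. It rose to 51.0 to 63.9 CPM in late mouse_283 from 15.0 to 26.1 CPM early, and in mouse_285 it went from 4.04 and 6.29 CPM to 7.61 to 11.7 CPM, at 1.19 (SE 0.23, adjusted p = 0.0150 in edgeR). Pdx1 was also lower in mouse_285 than in mouse_283, at -2.31 (SE 0.24, adjusted p = 0.00198). Its call with stage was lost without the animal term (adjusted p = 0.246).

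Of the 9 TALE cofactor genes, 5 were read, 2 low and 2 silent. In edgeR 1 of 7 tested was higher and none lower in late libraries, beside 0.706% higher and 2.34% lower over all genes. At an unadjusted p under 0.05 stood 2 of the 7, and DESeq2 placed 2 past the threshold. The same 2 counts were 3346 and 1343 over all 14172 genes tested. Meis2 was the gene higher in edgeR, with 2.89 to 13.1 CPM early and 25.3 to 33.2 CPM late and no overlap. Its log2 fold change was 2.06 (SE 0.27, adjusted p = 0.00249 in edgeR). It passed under all 20 alternative settings. Meis1, which in other tissues partners Hoxa9, was silent, with 3 reads in passage 4 of mouse_283 and none elsewhere.

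The complexes that silence and open Hox clusters were read throughout. All 30 Polycomb subunit genes and all 14 trithorax and H3K27 demethylase genes were read, and 0 of either list passed between stages in edgeR, where the medians of their log2 fold changes were 0.22 and 0.12. At an unadjusted p under 0.05 stood 9 Polycomb and 1 trithorax gene, and DESeq2 placed 2 and 1 past the threshold. Over all 14172 genes tested, the same 2 counts were 3346 and 1343. Ezh2, the H3K27 methyltransferase, ran from 12.8 to 53.3 CPM early and from 52.3 to 67.0 CPM late, at 0.86 (SE 0.28, adjusted p = 0.111 in edgeR). It passed in 4 alternative settings, among them DESeq2 (adjusted p = 0.0341). Passages 3 and 4 of mouse_283, the libraries with the steep GC slope, were its lowest, at 12.8 and 14.2 CPM, and Ezh2 stood at 0.48 (adjusted p = 0.132) without them and at 0.69 (adjusted p = 0.0295) with a correction for GC and length.

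Regional and cell type markers were counted beside the Hox genes. Among 8 genes of the proximal small intestine all were read. Gata4, which keeps the jejunum distinct from the ileum, ran from 237 to 322 CPM over all libraries, at -0.26 (SE 0.14, adjusted p = 0.268 in edgeR). Of the 8 tested, 1 was higher in late libraries (Pdx1) and 1 lower, Lct, the lactase gene. Over all genes tested, 0.706% were higher and 2.34% lower. An unadjusted p under 0.05 was found for 3 of the 8 and for 3346 of all 14172 genes tested. DESeq2 placed 3 of the 8 and 1343 of all genes past the threshold. Lct ran from 30.9 to 58.6 CPM early, from 1.62 to 2.25 CPM in late mouse_283 and from 16.9 to 33.7 CPM in late mouse_285, at -3.09 (SE 0.63, adjusted p = 0.0211). Its call was lost without the animal term (adjusted p = 0.107) and without any 1 late library of mouse_283 (adjusted p from 0.0818 to 0.0866).

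Of 7 colon genes in the files, 2 were read, 1 trace and 4 silent, with Car1 and Retnlb at 0. Only 3 were tested, with 0 higher and 1 lower in late libraries, beside 0.706% and 2.34% over all genes. An unadjusted p under 0.05 was found for 1 of the 3 and for 3346 of all 14172 genes tested. DESeq2 placed 1 of the 3 and 1343 of all genes past the threshold. Aqp8, a colon water channel, was lower in late libraries, with 0.351 to 1.33 CPM early and 0 to 0.258 CPM late, at -4.03 (SE 0.76, adjusted p = 0.0146 in edgeR), a call lost without passage 4 of mouse_285 (adjusted p = 0.0806).

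Hox genes are used in gut mesenchyme, neurons and blood, so markers of those cells were counted as well. All 13 epithelial markers were read, with a summed level of 10012 to 12595 CPM early and 8922 to 11090 CPM late. Of 13 mesenchyme markers 1 was read (Vim), and Dcn, Lum and Thy1 gave no read. Their sums ran from 11.7 to 23.3 CPM early and from 12.6 to 21.0 CPM late, and without Vim from 2.75 to 7.09 CPM early and from 2.36 to 4.23 CPM late. The collagen genes Col1a1, Col1a2 and Col3a1, named after their values were seen, had means of 0.317, 0.112 and 0.0515 CPM early and of 0.157, 0.0076 and 0 CPM late. Pdgfrb had means of 2.44 CPM early and 1.34 CPM late, and Acta2, Des and Foxf1 also had the lower mean late. The higher mean was late for Vim (11.5 early and 13.6 CPM late), Tagln (1.37 and 1.54) and Pdgfra (0.0769 and 0.127). Passage 2 of mouse_283 held 14 of the 28 early Col1a1 reads, 7 of the 9 early Col1a2 reads and all 4 Col3a1 reads. In passage 3 of mouse_283, a library with the steep GC slope, the 3 collagen genes gave 0 reads and the mesenchyme markers summed to 11.7 CPM. Endothelial markers summed to 0.105 to 0.837 CPM early and 0.0945 to 0.902 CPM late, with Kdr at 0. Enteric neuron and glia markers summed to 0.898 to 1.80 CPM early and 1.02 to 2.31 CPM late, with Sox10 at 0. Immune markers summed to 7.58 to 23.0 CPM early and 7.35 to 14.1 CPM late, mostly Itgam and Cd68, while Ptprc, which all white blood cells carry, reached 0.0345 CPM at most. None of these lists had a gene past the threshold between stages in edgeR, with 2 epithelial, 1 mesenchymal and 1 immune marker at an unadjusted p under 0.05, and 1 epithelial and 1 mesenchymal marker past it in DESeq2. Enough counts for the test were found in 13 epithelial, 3 mesenchymal and 3 immune markers. Over all 14172 genes tested, 3346 stood at that unadjusted p and 1343 passed in DESeq2. The part of these cells in the Hox reads was not tested in any library.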

How the data were processed

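RNA was measured in 11 organoid libraries of 2 mice. The authors deposited, per library, whole-number read counts per Ensembl gene in an unstranded column and 2 strand columns, made with Trimmomatic and STAR on mm9 per the submitters' processing notes; versions and annotation are not given in the sources used here. Each strand column held about 50% of the reads (49.99% to 50.16%), so the unstranded column was used. Unmapped (4.76% to 10.2%), multimapping (5.92% to 8.78%), no-feature (3.77% to 11.7%) and ambiguous (3.11% to 4.03%) reads were left out of library sizes. Totals of 15114132 to 28949911 gene reads make 3 reads worth 0.104 to 0.198 CPM. Passage and animal come from the sample titles; the passage number in the deposited table names is 1 higher in all 11, and the titles were used.

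Symbols, exon lengths, GC content and overlaps came from GENCODE M21 (GRCm38), which is not the build of the files, for 32620 of 37310 identifiers; promoters came from RefSeq. Counts of 3 or fewer in every library made a gene silent. Counts were tested with edgeR 4.0.16 (quasi-likelihood, TMM, filterByExpr, terms for animal and stage, Benjamini-Hochberg over all genes tested, SE taken as the fold change over the root of F) in R 4.3.3, and with DESeq2 1.42.0 as an alternative. The pairing by animal is that of the labels. No pair of libraries agreed within sampling noise (smallest chi-square per degree of freedom 14.2). The test was checked on simulated counts drawn independently per library, with no difference between animals and no GC slope. That check does not cover those features of the data. Values per library are given for Hox genes past a threshold and for the 8 with the highest median CPM; of other lists, for genes past the threshold and for Cdx1, Cdx2, Meis1, Meis2, Ezh2 and Gata4; some items are not reported here. The members and lists were chosen with earlier results of these data known. Alternatives were other scalings, filters, strand columns, a correction for GC and length, and leaving out libraries.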

Additional observations from a re-analysis of the deposited data

Results flagged for a closer look

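In 42 groups of 5 or 6 libraries, the highest or lowest value stood far from the rest in 3. Chance gives about 1 in 20 where values are normally distributed. Counts near 0 are not, so these 3 were not shown to exceed chance. Hoxa9 in the late libraries stood at 1.28 CPM in passage 11 of mouse_283, against 0.547 CPM in the next highest. Hoxa10 stood at 0.662 CPM in the same library, against 0.331 CPM in the next. Without that library Hoxa9 stood at -1.95 (adjusted p = 0.0756 in edgeR) and Hoxa10 at -1.44 (adjusted p = 0.322) on the log2 scale, late over early. Meis1 stood at 0.105 CPM in passage 4 of mouse_283 and at 0 in the other early libraries, which is 3 reads.

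In the strand columns, used here only as an alternative, Hoxb2 reached 15 reads in a library when both strands were summed, against 1 read at most in the unstranded column. Those added reads may belong to Hoxb3os, which overlaps Hoxb2.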

How the results depend on the processing

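Of the classes, silence held for 24 members, for 23 with the strand columns summed, for 34 with a limit of 10 reads, and for 27 without passages 3 and 4 of mouse_283, a setting chosen after seeing the data for this count. A higher limit or fewer libraries can only keep or raise the number silent. Between stages, 432 genes became 1343 with DESeq2, 1819 without the low-count filter (1053 higher and 766 lower, against 100 and 332), 697 without passages 3 and 4 of mouse_283, 782 with the GC and length correction (383 higher and 399 lower), and 173 to 4872 when 1 library was left out, the highest without passage 2 of mouse_283 (2596 higher and 2276 lower). The Hox genes called were 0, but 1 with DESeq2, 1 without the filter and 0 to 1 leaving out 1 library; at least 1 CPM in 5 libraries left no Hox gene to test. Between animals, 11 genes became 126 with DESeq2, 207 without the filter, 107 without passages 3 and 4 of mouse_283, 28 with the GC correction and 3 to 74 leaving out 1 library. The interaction gave 0 genes, then 16 with DESeq2, 65 without the filter, 5 without those 2 passages, 1 with the GC correction and 0 to 2314 leaving out 1 library. With no replicate block (no term for the animal, which pairs the libraries), 400 genes passed between stages, 2 between animals (no term for stage), and 0 Hox genes in either. Hoxa9 stood at 0.721 CPM per kb by coding length, against 0.105 by exon length. The causes were not tested. Depth limits all Hox values: 35 members had too few reads for the test.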

Other observations

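Retinoic acid induces Hox genes in the embryo, and its pathway was counted too. Of 17 pathway genes, 7 were read, 5 trace and 5 silent, and Rxrg and Crabp1 gave no read. None of the 7 tested passed between stages in edgeR (2 at an unadjusted p under 0.05, 0 in DESeq2), where the median of their log2 fold changes was -0.27. Over all 14172 genes tested, 3346 stood at that unadjusted p and 1343 passed in DESeq2. The summed level ran from 337 to 433 CPM early and from 353 to 396 CPM late.

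CTCF and cohesin, which fold the Hox clusters into domains, were read in all 10 genes listed, and none passed between stages in edgeR (2 at an unadjusted p under 0.05, 0 in DESeq2), with a median log2 fold change of 0.59. Their sum ran from 201 to 806 CPM early and from 611 to 942 CPM late. Of 6 genes of the distal small intestine, 2 were read, 1 low, 2 trace and 1 silent. The silent one, Fabp6, a bile acid binding protein of the ileum named after its values were seen, gave 5 reads in all. None of the 5 tested passed between stages in edgeR (2 at an unadjusted p under 0.05, 2 in DESeq2), and their median log2 fold change was -1.03. The counts of both lists stand beside 3346 of 14172 genes at an unadjusted p under 0.05 and 1343 past the threshold in DESeq2.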
